A study of Mus musculus with 2 samples.

Results

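The TRIM genes, which encode proteins with a tripartite motif, were described in mouse neural stem cells of the established line NE4C, with and without homocysteine thiolactone (HTL). The members were the rows of the expression table whose symbol was Trim followed by a number and at most 1 letter, which gave 47 of 16803 genes. RNA was sequenced from 1 culture kept under normal conditions (control) and from 1 culture treated with HTL, a cyclic form of homocysteine that reacts with lysine residues of proteins. The dose and duration of the treatment are not given in the labels. The family was picked because Trim66 was among the largest rises in this same comparison, so its differences are given as a description. The exact tests applied below only show how the count of genes past 2-fold depends on the rule, and are not read as evidence about the family. Each condition had 1 library, so the spread between cultures is unknown and all intervals below cover counting error only.

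The tripartite motif is a RING finger, 1 or more B-boxes and a coiled coil, and most TRIM proteins are ubiquitin ligases. The part that follows the coiled coil sets the class of the protein. A PHD finger with a bromodomain marks the TIF1 group of chromatin regulators, NHL repeats mark RNA-binding or substrate-binding members with roles in stem cells and neurons, and a PRY-SPRY domain marks the largest class, with many antiviral members. Trim28, also called KAP1, is recruited to DNA by zinc finger proteins with a KRAB domain and brings the histone methyltransferase Setdb1 and heterochromatin proteins to silence retroelements.

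After the estimated reads of each gene were rounded, the libraries summed to 10350665 (control) and 9102076 (HTL treatment) reads. Of 8 neural stem cell markers, 7 reached 10 reads in each library, and the list summed to 181.5 FPKM in control and 120.2 FPKM in HTL-treated cells. Its members were mixed. Vim, Sox2 and Sox1 had log2 ratios of -1.01, -1.46 and -1.78, Nes, Msi1 and Pax6 lay between -0.059 and 0.12, and Notch1 was at 1.08 (0.76 to 1.41). The 5 neuron markers summed to 20.4 and 27.9 FPKM, of which Tubb3 made up 16.3 and 24.8 FPKM, while Dcx had 88 and 29 reads and Map2 114 and 66. Of the 2 astrocyte markers in the table, Gfap had 2 and 0 reads and Aldh1l1 21 and 56 reads. The part of these marker levels in the results was not tested, and in bulk RNA fewer cells of a type and less RNA per cell cannot be told apart. TRIM genes took 0.180% of control reads and 0.169% of HTL treatment reads. All levels below are FPKM (fragments scaled to transcript length and library size), which may be compared between genes. All ratios are log2 of HTL treatment over control reads, scaled to the library totals, with exact Clopper-Pearson 95% intervals.

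Of the 47 genes, 40 reached a sum of 10 reads over the libraries and were compared. The other 7 were Trim9, Trim30b, Trim43a, Trim43c, Trim47, Trim65 and Trim72, whose reads in either library ran from 0 to 7. A gene was counted as past 2-fold when its log2 ratio was at least 1 in either direction and its counting interval lay on one side of 0. By this rule 3 TRIM genes were higher after HTL (Trim66, Trim6 and Trim35) and 8 were lower (Trim2, Trim37, Trim45, Trim12c, Trim14, Trim56, Trim17 and Trim60). Among all 13442 genes with at least 10 reads, 3.98% were past 2-fold higher and 10.6% lower. The median log2 ratio of the 40 TRIM genes was -0.29, and that of all 13442 genes was -0.14. For the 29 TRIM genes whose reads averaged 50 or more it was -0.097. This value cannot be set beside -0.14, which covers all genes with at least 10 reads. The study's cutoffs, a 2-fold difference together with an adjusted p of at most 0.001, were applied here to an exact binomial test on the reads, a test chosen here. By them 3 TRIM genes were higher and 6 lower, where 2.81% of all genes passed as higher and 7.98% as lower. Neither the counts nor the medians are read as a property of the family, since the same comparison chose it.

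**Figure D1:**
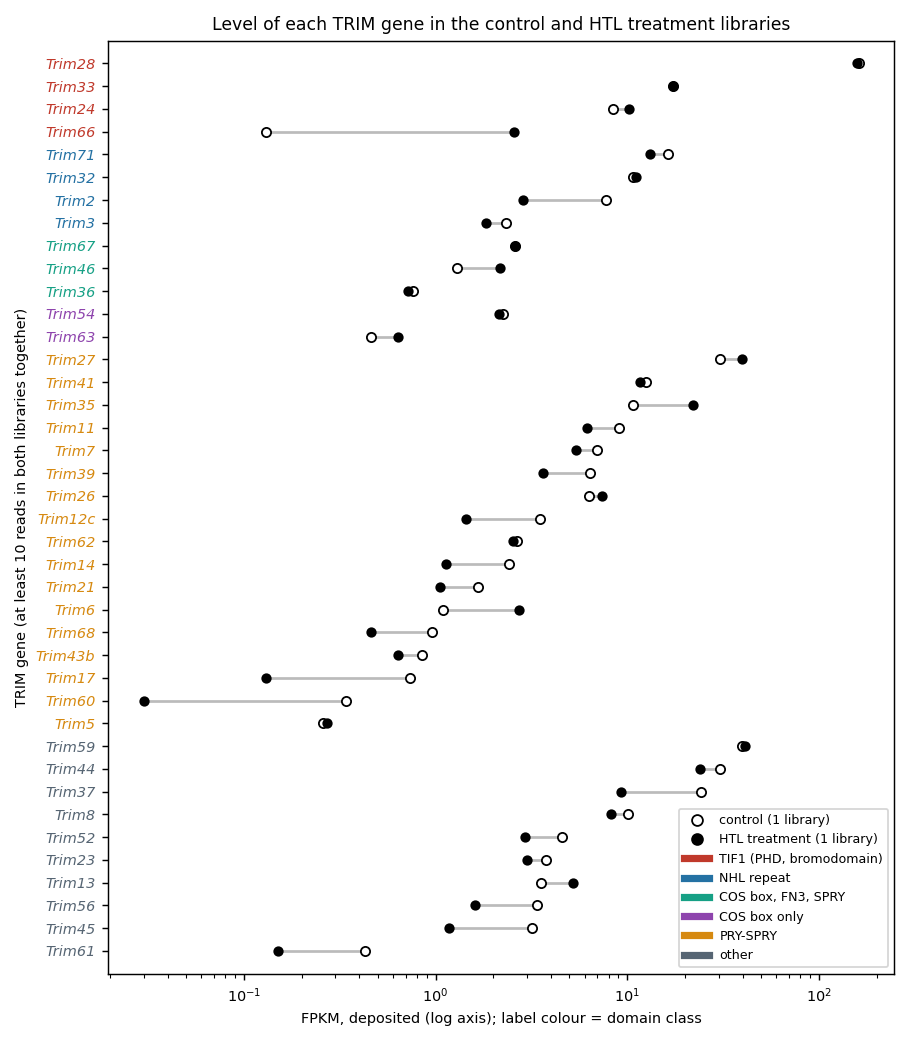
FPKM on a log axis of the 40 TRIM genes with at least 10 reads, in the control library (open circles) and the HTL treatment library (filled circles), grouped by domain class (label colour). Trim28 stands highest in both libraries, at 161.4 and 158.3 FPKM, while the Trim66 circles lie farthest apart, at 0.13 and 2.58 FPKM.

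The TIF1 genes held both the most abundant TRIM transcript and the widest ratio. Trim66 (gene ID 330627; NCBIM37 chromosome 7, 116592520 to 116651648, minus strand), also called TIF1 delta, encodes a reader of histone marks that lacks the RING finger and is best known from the testis. It had 12 reads in control cells and 221 in HTL-treated cells, and its level was 0.13 and 2.58 FPKM. The ratio was 20.1-fold (11.8 to 41.2), a log2 ratio of 4.33 (3.55 to 5.36). The size rests on the 12 control reads, and the log2 ratio was 3.89 with 5 reads added to each library and 1.66 as the ratio of FPKM + 1. By level it moved from rank 45 of the 47 TRIM genes in the control library to rank 23 in the HTL treatment library. Even there it remained a minor transcript, at rank 9055 of all 16803 genes.

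Trim28 (gene ID 21849; chromosome 7, 13609501 to 13616384, plus strand) lies on the same chromosome as Trim66 and had a ratio near 0. It had 5471 reads in control cells and 4728 in HTL-treated cells, with levels of 161.4 and 158.3 FPKM. The log2 ratio was -0.025 (-0.082 to 0.031), and under each other scaling it was above 0, up to 0.10. Trim28 alone made up 35.6% of the summed FPKM of the family in control cells and 36.8% in HTL-treated cells.

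The other TIF1 genes were not past 2-fold. Trim33, which encodes a co-regulator of Smad signalling, had 1614 and 1416 reads, 17.4 and 17.3 FPKM and a log2 ratio of -0.0034 (-0.11 to 0.10). Trim24, a nuclear receptor co-regulator that reads histone H3, had 544 and 583 reads, 8.44 and 10.2 FPKM and a log2 ratio of 0.29 (0.11 to 0.46), above the interval of Trim28. After centring on the median of genes of like transcript length, Trim33 was at 0.37 and Trim24 at 0.57. Trim66 and Trim33 have the long transcripts of the group, at 9255 and 8834 bases. When genes were cut into 10 bins of transcript length, both fell in the longest bin, whose median log2 ratio was -0.38.

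To show the start regions of the TIF1 gene with the widest ratio and of the one with the highest level, the RefSeq promoters (build GRCm38.p6, 250 bases before to 50 bases after the listed start) of Trim66 (chr7:109508085-109508384, minus strand) and Trim28 (chr7:13023902-13024201, plus strand) are printed 5′ to 3′. Capitals mark matches on either strand to 5 motifs of stress and general promoters. They were CCAAT (the CCAAT box), CCACG (the second half-site of the endoplasmic reticulum stress element), TGATGNAA (a core of the amino acid response element), TGACGTG (the unfolded protein response element) and CACGTG (the E-box), of which the last can overlap a CCACG match.
Trim66: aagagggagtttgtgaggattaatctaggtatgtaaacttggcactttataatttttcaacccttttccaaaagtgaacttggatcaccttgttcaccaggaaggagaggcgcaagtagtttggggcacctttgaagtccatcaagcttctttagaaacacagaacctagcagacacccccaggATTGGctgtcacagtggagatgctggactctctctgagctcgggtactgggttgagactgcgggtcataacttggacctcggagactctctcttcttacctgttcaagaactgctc
Trim28: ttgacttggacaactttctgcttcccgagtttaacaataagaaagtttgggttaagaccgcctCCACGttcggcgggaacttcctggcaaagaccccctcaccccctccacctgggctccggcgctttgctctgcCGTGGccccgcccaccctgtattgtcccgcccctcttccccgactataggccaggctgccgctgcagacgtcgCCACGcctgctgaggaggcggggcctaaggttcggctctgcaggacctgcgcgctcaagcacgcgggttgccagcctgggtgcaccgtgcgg
The Trim66 window held a single match, a CCAAT on the reverse strand, a motif present in 37.4% of all 32851 promoters. The Trim28 window held 3 matches to CCACG, 2 on the forward strand and 1 on the reverse strand, and this motif was present in 32.8% of all promoters. Neither window held a match to the amino acid response (3.97% of promoters), unfolded protein response (2.01%) or E-box (7.15%) letters. The windows differed in base composition. The Trim66 window had 4 CpG dinucleotides and 47.0% G or C, and the Trim28 window 23 and 64.0%. The median was 14 CpG over the 47 promoters listed for 36 TRIM genes, and 7 over all promoters. The listed Trim66 start lies 8.63 kb inside the outer end of the RefSeq gene, so other starts of the gene are not covered by this window.

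**Figure D2:**
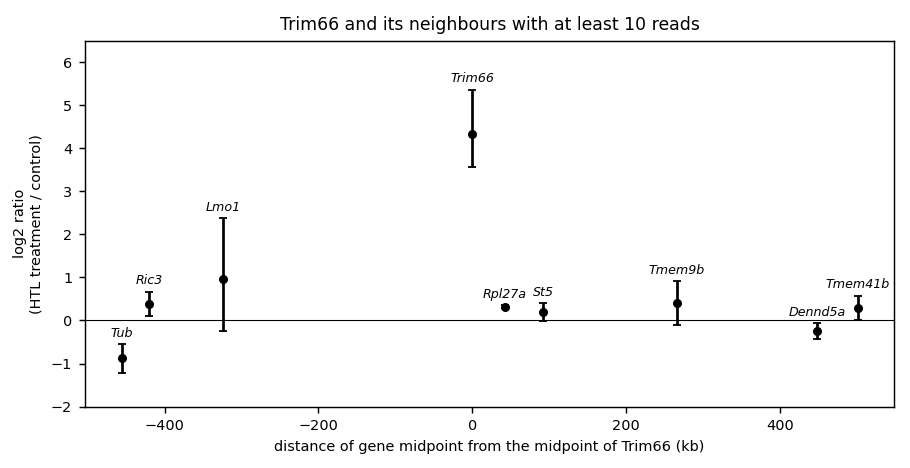
Log2 ratio of Trim66 and the 8 genes with at least 10 reads within 500 kb of it, against the distance of gene midpoints in kb. Points are the values of the 2 libraries and bars the 95% counting intervals. Trim66 stands at 4.33, and its neighbours lie between -0.88 and 0.97.

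Within 500 kb of Trim66, 8 other genes had at least 10 reads and 0 of them were past 2-fold, beside 14.6% of all genes. With so few genes a count of 0 does not set the neighbours apart from other genes. Rpl27a, a ribosomal protein gene 11.0 kb away, had 11727 and 12869 reads (log2 ratio 0.32, 0.28 to 0.36). St5 had 395 and 399 reads (log2 ratio 0.20, -0.0043 to 0.40). Stk33, the nearest gene on the other side, had 2 reads in each library. No exon of Trim66 overlapped an exon of another annotated gene.

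The NHL genes were lower or near 0 in their ratios. Trim2 (gene ID 80890; chromosome 3, 83964361 to 84109368, minus strand), a neuronal ubiquitin ligase for neurofilament light chain, had 583 reads in control cells and 191 in HTL-treated cells. Its level was 7.72 and 2.87 FPKM, and its log2 ratio was -1.42 (-1.67 to -1.19). That ratio was -1.04 after length centring and -1.17 as the ratio of FPKM + 1. Trim71 (chromosome 9, 114420393 to 114473487, minus strand) is the mouse Lin41, a target of let-7 microRNAs that stem cells express and that mouse embryos need for neural tube closure. It had 883 and 632 reads, 16.3 and 13.2 FPKM and a log2 ratio of -0.30 (-0.45 to -0.15), which was -0.17 under TMM scaling and -0.017 after length centring. Trim3 had 70 and 48 reads (log2 ratio -0.36, -0.92 to 0.19), an interval that holds 0. Trim32, which acts in the neuronal differentiation of progenitors, had 357 and 325 reads (log2 ratio 0.050, -0.17 to 0.27). Of the 4 NHL genes 0 were past 2-fold higher and 1 lower, beside 3.98% and 10.6% of all genes, and so few genes say nothing about the class.

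Among genes with a Trim symbol, those with a microtubule-binding COS box were expressed at low levels. Mid1, a microtubule-bound ligase under another symbol, was at 11.3 and 4.21 FPKM and past 2-fold lower, as given below. Trim67 had 241 and 212 reads and the same level of 2.60 FPKM in both libraries. Its log2 ratio was 0.00049 (-0.27 to 0.27), and 0.38 after length centring. Trim46, which organises microtubules of the axon, had 43 and 57 reads (log2 ratio 0.59, -0.0045 to 1.20). Exons of Trim46 share 239 bases with Krtcap2 on the opposite strand. Trim36 had 36 and 30 reads. The muscle ring finger genes Trim54 and Trim63 had 36 and 30 reads, and 9 and 11 reads. Their level was at most 2.26 FPKM, and of the 5 muscle markers, 3 were in the table. Acta1 had 2 and 0 reads, Ckm 1 and 0 and Ttn 173 and 59, and they summed to 0.41 and 0.10 FPKM. Trim9 was at 0 reads in the control library, which allows up to 3 reads, and at 3 in the HTL treatment library. Of the 5 genes with a Trim symbol in these classes that were compared, 0 were past 2-fold, beside 14.6% of all genes. So small a number says nothing about the classes.

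The PRY-SPRY class held 23 of the 47 genes, of which 17 had at least 10 reads. It held both other genes past 2-fold higher and 4 of those lower, beside 3.98% and 10.6% of all genes. With 17 genes these counts say nothing about the class, and Trim17 and Trim60 rest on at most 13 reads in either library. Trim35 (gene ID 66854; chromosome 14, 66915868 to 66930261, plus strand), a ubiquitin ligase with roles in innate immunity, had 414 reads in control cells and 747 in HTL-treated cells. Its level was 10.8 and 22.1 FPKM and its log2 ratio 1.04 (0.86 to 1.21), just past the cutoff. Trim6 (gene ID 94088; chromosome 7, 111367307 to 111383666, plus strand), which makes unanchored ubiquitin chains in the interferon response, had 44 and 96 reads. Its log2 ratio was 1.30 (0.78 to 1.86), at levels of 1.10 and 2.73 FPKM. Exons of Trim35 share 99 bases with a non-coding gene on the opposite strand, 1700001G11Rik, which had 3 and 0 reads.

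Among the lower PRY-SPRY genes, Trim12c, a mouse relative of the antiviral gene TRIM5, had 134 and 48 reads (log2 ratio -1.29, -1.80 to -0.81). Its annotated transcripts share 29.1% of their 50-base stretches with other genes, mainly Trim5. Trim5 had 7 and 6 reads, and summed with Trim12c the log2 ratio was -1.19 (-1.68 to -0.74). Trim14, an adaptor in mitochondrial antiviral signalling, had 81 and 33 reads (log2 ratio -1.10, -1.74 to -0.51). Under TMM scaling Trim14 was at -0.97, short of the cutoff, and 1356 bases of its exons overlap Nans on the opposite strand, which had 743 and 1117 reads. Trim17, known from neuronal apoptosis, had 13 and 2 reads (log2 ratio -2.27, -5.71 to -0.37). Trim60 had 13 reads and 1 read and a log2 ratio of -3.02 (-8.92 to -0.78). The intervals of Trim17 and Trim60 are too wide to order them against the others. Both also share exon sequence with another gene, Trim17 with the histone gene Hist3h2a (708 bases) and Trim60 with Trim61 (231 bases).

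The remaining PRY-SPRY genes were not past 2-fold. Trim27, a nuclear ligase first known as Rfp, was the most abundant of the class, with 1347 and 1536 reads, 30.7 and 39.7 FPKM and a log2 ratio of 0.37 (0.27 to 0.48), which was 0.50 under TMM and 0.58 after length centring. Trim41 had 455 and 374 reads, 12.5 and 11.7 FPKM and a log2 ratio of -0.097 (-0.30 to 0.10). Trim39 and Trim11 had intervals below 0, with log2 ratios of -0.81 (-1.17 to -0.47) and -0.55 (-0.88 to -0.23). Trim68, at 24 and 10 reads, had a log2 ratio of -1.04, but its interval of -2.31 to 0.040 held 0. Trim26, Trim62, Trim7, Trim21, Trim43b and Trim5 had log2 ratios from -0.61 to 0.23 with intervals that held 0. Trim43a, Trim43b and Trim43c are near copies, with 43.6% to 55.6% of 50-base stretches shared, and summed they had 30 and 16 reads (log2 ratio -0.71, -1.70 to 0.20).

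**Figure D3:**
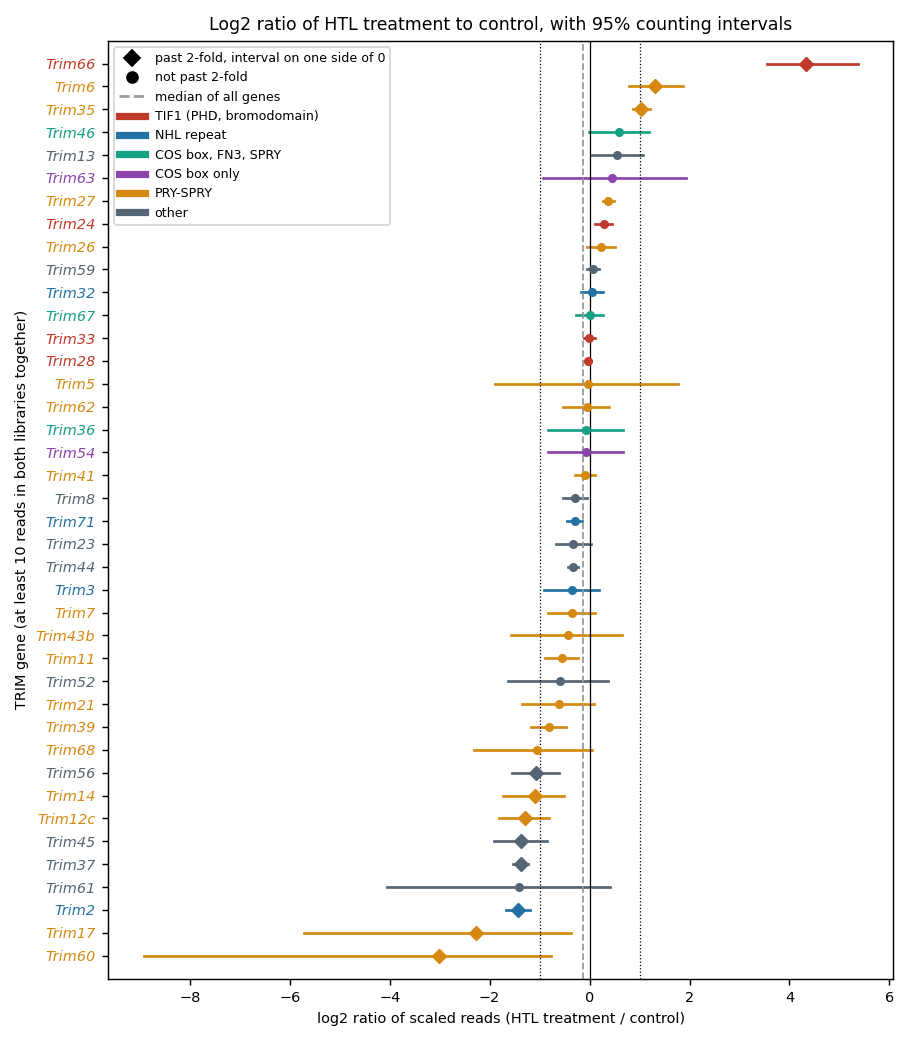
Log2 ratio of HTL treatment to control reads for the 40 TRIM genes with at least 10 reads, sorted, with 95% counting intervals and colour by domain class. Diamonds are past 2-fold with an interval on one side of 0 (3 higher, 8 lower), dotted lines mark 2-fold and the dashed line is the median of all genes, -0.14.

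Genes with another C-terminal part, or none, made up the last 10. Trim37 (gene ID 68729; chromosome 11, 86940579 to 87034185, plus strand), a ligase with a MATH domain that limits centriole assembly, had 1425 reads in control cells and 483 in HTL-treated cells. Its level was 24.2 and 9.29 FPKM and its log2 ratio -1.37 (-1.53 to -1.23), the tightest interval among the genes past 2-fold lower. After length centring its log2 ratio was -1.09, outside that interval. Trim45, with a filamin domain, had 124 and 42 reads (log2 ratio -1.37, -1.92 to -0.86). Trim56, an antiviral ligase, had 129 and 54 reads (log2 ratio -1.06, -1.56 to -0.60), which under TMM scaling was -0.93, short of the cutoff. Trim61, at 10 and 3 reads, had a log2 ratio of -1.42 with an interval of -4.05 to 0.41.

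The others of this group were not past 2-fold. Trim59, a membrane-anchored member, was the second most abundant TRIM gene, with 39.6 and 41.4 FPKM and a log2 ratio of 0.068 (-0.051 to 0.19), which was 0.20 under TMM and 0.24 after length centring. Trim44, a RING-less regulator that stabilises other TRIM proteins, had 30.4 and 24.1 FPKM and a log2 ratio of -0.34 (-0.44 to -0.23), which was -0.21 under TMM and -0.056 after length centring. Trim8 had 342 and 247 reads (log2 ratio -0.28, -0.53 to -0.044), and its log2 ratio was -0.15 under TMM and -0.11 after length centring. Trim13, which is anchored in the endoplasmic reticulum and acts in the degradation of its proteins, had 59 and 76 reads, 3.53 and 5.19 FPKM and a log2 ratio of 0.55 (0.041 to 1.07). Trim23 and Trim52 had log2 ratios of -0.32 and -0.59 with intervals that held 0.

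**Figure D4:**
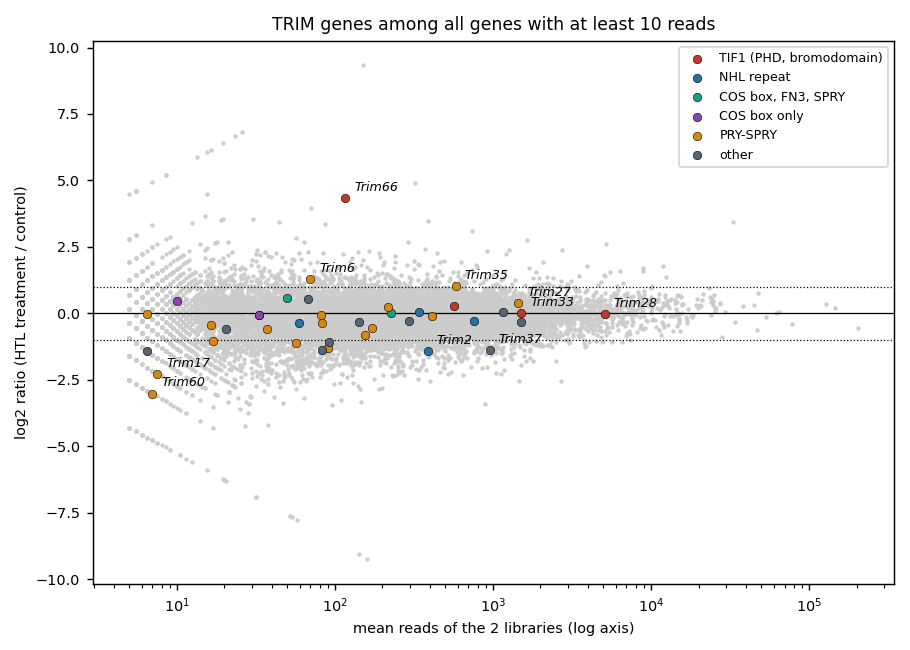
Log2 ratio against mean reads of the 2 libraries (log axis) for all 13442 genes with at least 10 reads (grey) and the 40 TRIM genes (coloured by domain class). Dotted lines mark 2-fold. Trim66 lies at a log2 ratio of 4.33, rank 17 from the top of the 13442 genes, and Trim17 and Trim60 lie at the low-read end.

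Position and sequence were compared next, as properties that the choice of the genes did not use. Chromosome 7 carried 10 of the 47 genes, among them Trim28, Trim66 and the run of Trim6, Trim5, Trim12c and Trim30b, and chromosome 11 carried 7. Within that run Trim6 was higher and Trim12c lower. Of the 47 genes, 31 shared no 50-base stretch with the coding transcripts of another gene, 8 shared up to 2% and 8 shared more. Exons of 15 genes overlapped those of another annotated gene. As the use of strand in counting is not given in the sources used here, reads of these genes are uncertain.

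Scaling decided the sign of 7 TRIM genes. All of them had log2 ratios near 0, namely Trim28, Trim33, Trim36, Trim41, Trim5, Trim54 and Trim62. TMM raised every log2 ratio by 0.13. Under TMM the split of TRIM genes past 2-fold was 3 higher and 6 lower, and that of all genes went from 535 higher and 1427 lower to 751 and 1114.

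Genes related to TRIM proteins were taken from 4 lists. Of 29 genes listed for silencing by KAP1, the Trim28 protein, 0 were past 2-fold higher and 2 lower, beside 3.98% and 10.6% of all genes. The list is broad and not limited to proteins that bind KAP1. Its median log2 ratio was -0.26, beside -0.14 for all genes, and under TMM it was -0.13, beside -0.0075. Fam208a, the scaffold of the HUSH silencing complex, had 373 and 80 reads (log2 ratio -2.03, -2.40 to -1.68). Atrx, a chromatin remodeller, had 2397 and 1016 reads (log2 ratio -1.05, -1.16 to -0.95), and under TMM it was at -0.92, short of the cutoff. The methyltransferase gene Setdb1 had 1829 and 1491 reads (log2 ratio -0.11, -0.21 to -0.0099), and under TMM its log2 ratio turned to 0.021 (-0.079 to 0.12). The heterochromatin protein genes Cbx3, Cbx5 and Cbx1 had log2 ratios of -0.95 (-1.07 to -0.84), -0.88 (-0.94 to -0.82) and -0.23 (-0.33 to -0.12). Under TMM they were at -0.82 (-0.94 to -0.71), -0.75 (-0.81 to -0.69) and -0.097 (-0.20 to 0.0072). At the other end, the histone deacetylase gene Hdac1 had 3049 and 4066 reads (log2 ratio 0.60, 0.53 to 0.67), and Mta2, a subunit of the NuRD complex, one of 0.45 (0.38 to 0.52).

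The interferon and RIG-I pathway, in which many PRY-SPRY genes act, was thinly expressed, and 24 of its 32 genes in the table could be compared. The median log2 ratio was -0.39, beside -0.14 for all genes. Under TMM it was -0.26, beside -0.0075 for all genes, and after length centring it was -0.20. Past 2-fold were 1 gene higher and 3 lower, beside 3.98% and 10.6% of all genes. Zc3hav1, an antiviral zinc finger protein, had 220 and 755 reads (log2 ratio 1.96, 1.75 to 2.19). Irf1, an interferon regulatory factor, had 211 and 46 reads (log2 ratio -2.0, -2.51 to -1.55). Dhx58, with 25 and 9 reads, was at -1.25 (-2.57 to -0.14), and Irf3, with 190 and 83 reads, at -1.01 (-1.40 to -0.63), which under TMM was -0.88, short of the cutoff. Adar, an RNA editing enzyme, had 1074 and 1633 reads (log2 ratio 0.79, 0.68 to 0.90).

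RING ligases such as the TRIM proteins work with E2 enzymes, which carry ubiquitin. Of 31 genes, 0 were past 2-fold in either direction, beside 14.6% of all genes, and their median log2 ratio was 0.094, beside -0.14. They ran from Ube2q2 and Ube2v2, both at -0.99, to Ube2g2, an enzyme of endoplasmic reticulum degradation, at 0.74 (0.56 to 0.93), with Ube2d2a, a common partner of RING ligases, at 0.54 (0.45 to 0.64).

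TRIM proteins whose genes carry other symbols had 7 genes that could be compared, of which 0 were past 2-fold higher and 2 lower, beside 3.98% and 10.6% of all genes. Their median log2 ratio was 0.37, but it was -1.42 over the 3 genes whose reads averaged 50 or more. Pml, which organises nuclear bodies, had 1752 reads in control cells and 544 in HTL-treated cells, and its level was 31.4 and 11.1 FPKM. Its log2 ratio was -1.50 (-1.64 to -1.36). Mid1, a microtubule-bound ligase mutated in Opitz syndrome, had 403 and 132 reads (log2 ratio -1.42, -1.72 to -1.14). Its paralog Mid2 had 9 and 11 reads. Fsd1 had 154 and 175 reads (log2 ratio 0.37, 0.049 to 0.69), and the highest values were those of Bspry, 0.79 (-0.66 to 2.44) with 7 and 11 reads, and Rnf207, 0.62 (-1.20 to 2.67) with 5 and 7.

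**Figure D5:**
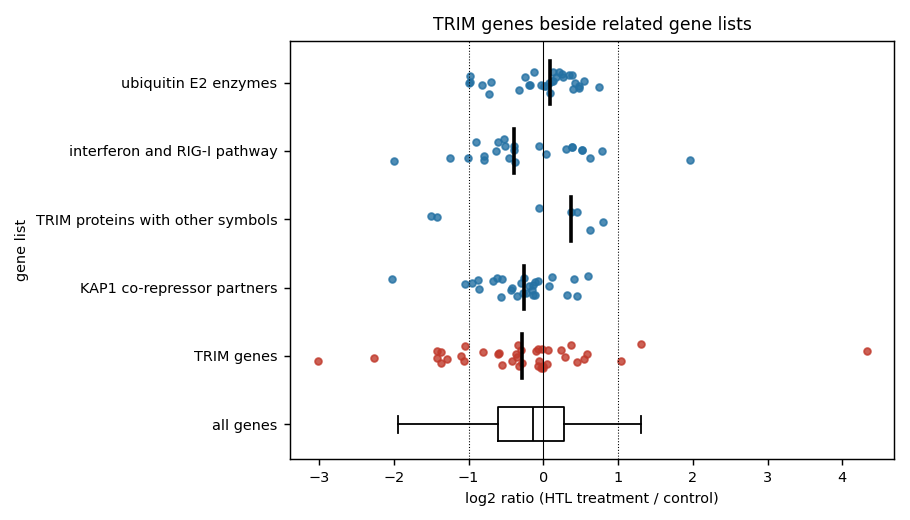
Log2 ratio of single genes with at least 10 reads in the TRIM family (red) and in 4 related lists (blue), with a black bar at each median. The box gives the quartiles of all 13442 genes, its whiskers the central 95% and dotted lines 2-fold. Medians are -0.29 (TRIM genes), -0.26 (KAP1 list), -0.39 (interferon and RIG-I genes) and 0.094 (E2 enzymes). For TRIM proteins with other symbols the median is 0.37, which turned to -1.42 over genes averaging 50 or more reads.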

How the data were processed

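The material was total RNA of NE4C cells, with 1 control and 1 HTL treatment library grouped by sample title. The authors mapped reads to the mouse genome (mm9 in the submitters' processing notes) and used RSEM for gene-level estimates. The mapper, annotation release and use of strand are not given in the sources used here. The authors deposited expected counts, of which 21.8% (control) and 20.2% (HTL treatment) were fractional, FPKM values with a minimum of 0.01, and transcript lengths. The log2 ratio and the p-value and FDR that the authors deposited are their own comparison and were not used.

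Expected counts were rounded. The 13442 genes that summed to at least 10 reads were compared, and 3361 were left out. Log2 ratios used the library totals with 0.5 read added, and 95% intervals were exact Clopper-Pearson intervals of the HTL treatment share of reads. No molecular identifiers are named, and several reads may come from 1 molecule, so intervals and the floor of 3 reads cover counting error only. Without replicates the quasi-likelihood test of edgeR could not be fitted. The cutoff of log2 1 is that of the study's methods.

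Genes named were the TIF1 and NHL genes, all genes past 2-fold, the 10 most abundant TRIM genes and, in each list, the genes past 2-fold, those with the 2 highest or 2 lowest ratios, and Setdb1, Cbx1, Cbx3 and Cbx5. Other TRIM genes were named to account for every member, and Mid2, Fsd1 and the neighbours and overlapping genes were named after their values were seen. The members and lists were chosen with earlier results of these data known. Gene spans came from GENCODE vM1 (NCBIM37, the assembly of mm9), and shared 50-base stretches from its coding transcripts. Intervals were tested on simulated counts. Alternatives were TMM and upper quartile scaling (edgeR 4.0.16, R 4.3.3), median of ratios, 5 reads added, the ratio of FPKM + 1, length centring, other read minimums and cutoffs, summed near copies, and the exact test of edgeR with an assumed coefficient of variation. Python 3.11.15 with scipy 1.17.1 was used.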

Additional observations from a re-analysis of the deposited data

How the results depend on the processing

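No paired analysis was possible because control and HTL treatment were single libraries, so none could be left out either, and DESeq2 could not be fitted. Summing Trim5 with Trim12c and leaving out Trim66 were chosen after seeing the data. The count of 11 TRIM genes past 2-fold became 3 with the ratio of FPKM + 1, which shrinks ratios of low genes, and 3 under a log2 cutoff of 2, where 6.30% and 3.09% of all genes passed. In the exact test of edgeR with the coefficient of variation assumed to be 0.1, 0.2 and 0.4 it became 7, 1 (Trim66) and 0, where 296 higher and 831 lower, 38 and 82, and 1 and 5 of all 13442 genes passed. Under the other alternatives it ran from 9 to 13, and it was 9 (3 higher, 6 lower) by the study's cutoffs with an exact binomial test, where 10.8% of all genes passed. With 1 library per condition and the family chosen by the same comparison, the counts from either exact test cannot serve as evidence about the family. In the test of edgeR the spread was also assumed rather than measured. That Trim66 passed at 0.2 restates the difference that led to the choice. The log2 ratio of Trim66 was 1.66 with FPKM + 1 and from 3.89 to 4.71 otherwise. That of Trim28 was 0.10 under TMM and the median of ratios, 0.068 under the upper quartile and 0.14 after centring on transcript length. The median of the E2 enzymes was 0.22 under TMM and the median of ratios, 0.19 under the upper quartile and 0.17 after length centring. For TRIM proteins with other symbols it turned to -1.42 over genes averaging 50 or more reads, where Pml, Mid1 and Fsd1 remained. The median of the TRIM genes stayed below 0 in each alternative run, from -0.34 to -0.056, and was -0.30 without Trim66.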
